A study of Mus musculus with 4 samples.

Results

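Potassium channel genes were taken as all probesets whose single platform gene symbol starts with Kcn, which gave 167 probesets of 84 genes among 45101 probesets on the array. The arrays measured hippocampal RNA of male DBA/2J mice, an inbred strain, at a labelled age of 8 to 10 weeks. Fluoxetine, an antidepressant that blocks serotonin reuptake, was given in the drinking water at 18 mg/kg per day for 21 days, and control mice drank untreated water. Each group of 12 mice was combined into 2 pools of 6, and each pool was measured on 1 Affymetrix Mouse Genome 430 2.0 array, giving 2 fluoxetine and 2 control arrays. A pool averages its 6 mice, so the spread between single animals was not measured.

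Potassium channels let potassium leave the cell, which holds the resting potential and ends the action potential. Voltage-gated members (Kcna, Kcnc, Kcnd, Kcnh and Kcnq) open on depolarisation. Inward rectifiers (Kcnj) and tandem-pore-domain background channels (Kcnk) set the resting conductance. Other members open on calcium or sodium, while silent and accessory subunits join other pore subunits and alter them. In the hippocampus these channels shape spike width, dendritic excitability and the response to inhibitory receptors, and in astrocytes they clear potassium from the extracellular space.

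Values are GCRMA-normalised intensities, not logged, and the submitters took 100 as the least intensity for expression. Probesets at 100 or more on at least 2 arrays were tested. Of the Kcn probesets 71 (42.5%) were tested, against 37.6% of all non-control probesets, and they stand for 39 of the 84 genes. Just inside this limit was Kcnmb2, with 93.8 and 107 in fluoxetine pools and 98.5 and 107 in control pools. Just outside was 1 of 3 Kcnt1 probesets, with 96.8 and 99.8 in fluoxetine pools, and 118 as the only value of 100 or more, in a control pool.

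Over all genes 16938 probesets were tested, and the arrays had 16651 to 16905 probesets at 100 or more. All 18 hybridisation spike-in probesets, which read control RNA mixed into the samples, were higher in both fluoxetine arrays, by a median log2 of 0.36. The median over all tested probesets was -0.04. The labels give no order of hybridisation, so a batch that followed the groups cannot be told apart from treatment. Among marker genes, all 6 neuron, 4 of 5 dentate granule cell and 4 of 5 CA pyramidal markers were tested, that is, at 100 or more in at least 2 arrays. So were 3 of 5 thalamus and habenula markers and 1 of 5 striatal ones, so these counts do not settle the tissue label. In whole tissue, fewer cells of a type and less RNA per cell cannot be told apart.

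Kcnj10 and Kcnk1 rose and Kcnk2 fell in fluoxetine pools, and these were the 3 of 71 Kcn probesets that passed limma's test at an adjusted p under 0.05. The share called over all tested probesets was 1.72% (1.03% higher and 0.685% lower in fluoxetine pools). An unadjusted p under 0.05 was found for 22 of the 71, beside 22.5% of all tested probesets. With a gene counted at its brightest tested probeset alone, Kcnj10 and Kcnk2 passed, 2 of 39 genes, beside 1.86% of all 9030 tested genes (1.31% higher and 0.554% lower). Of the 71 probesets 0 reached the submitters' 2-fold rule, which 0.791% of all tested probesets and 0.930% of all tested genes did. With any 1 of the 4 arrays left out, 0 Kcn probesets and 0 of all probesets passed limma's adjusted test, and 15 to 18 of the 71 Kcn probesets had an unadjusted p under 0.05 in those fits.

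The promoter windows of the 3 genes are shown because these genes carry the calls. Each is a window of 300 bases around an annotated start, from RefSeq, with GC boxes (GGGCGG, or CCGCCC on the other strand) in capitals. Kcnk2 has 4 annotated starts, of which the farthest upstream and the one with a GC box are printed.
Kcnj10 (GRCm38.p6, chr1:172340960-172341259, plus strand): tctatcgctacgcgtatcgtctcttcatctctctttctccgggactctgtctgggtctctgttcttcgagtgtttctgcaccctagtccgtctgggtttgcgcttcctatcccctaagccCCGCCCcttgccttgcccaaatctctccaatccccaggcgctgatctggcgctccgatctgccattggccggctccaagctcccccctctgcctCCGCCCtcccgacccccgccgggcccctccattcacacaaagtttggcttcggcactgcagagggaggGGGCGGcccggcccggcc
Kcnk1 (GRCm38.p6, chr8:125994852-125995151, plus strand): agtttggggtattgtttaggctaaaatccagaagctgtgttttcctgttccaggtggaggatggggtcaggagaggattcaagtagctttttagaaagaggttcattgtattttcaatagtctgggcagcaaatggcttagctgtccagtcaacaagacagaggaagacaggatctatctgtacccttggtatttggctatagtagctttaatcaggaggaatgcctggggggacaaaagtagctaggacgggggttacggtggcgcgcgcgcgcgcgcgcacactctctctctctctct
Kcnk2, upstream start (GRCm38.p6, chr1:189402224-189402523, minus strand): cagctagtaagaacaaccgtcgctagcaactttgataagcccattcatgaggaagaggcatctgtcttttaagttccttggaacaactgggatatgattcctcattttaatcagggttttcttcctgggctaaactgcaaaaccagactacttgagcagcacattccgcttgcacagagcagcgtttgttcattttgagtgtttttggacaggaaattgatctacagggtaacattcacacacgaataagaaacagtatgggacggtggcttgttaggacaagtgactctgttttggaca
Kcnk2, downstream start (GRCm38.p6, chr1:189343658-189343957, minus strand): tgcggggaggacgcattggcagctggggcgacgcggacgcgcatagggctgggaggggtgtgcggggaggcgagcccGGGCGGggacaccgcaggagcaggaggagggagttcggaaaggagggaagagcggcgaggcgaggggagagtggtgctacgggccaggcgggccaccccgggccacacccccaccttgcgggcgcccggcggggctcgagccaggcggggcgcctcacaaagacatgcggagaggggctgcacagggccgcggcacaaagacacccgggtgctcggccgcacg

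The Kcnj10 window holds 3 GC boxes and the downstream Kcnk2 window 1, while the Kcnk1 and upstream Kcnk2 windows hold none. Of all 32851 mouse promoter entries 35.7% hold at least 1, and of the 50 entries of tested Kcn genes 42.0% do. G and C make up 63.7% of the Kcnj10 window, 49% of Kcnk1, 43% of the upstream Kcnk2 window and 74.7% of the downstream one, beside a median of 52.7% over all entries. The core letters of the cyclic AMP response element (TGACG, or CGTCA on the other strand), which 20.8% of all entries hold, were in none of the 6 windows of these 3 genes. The letters TATAAA or TTTATA, in 13.6% of all entries, were in none of them either. A match is a description of letters, and the arrays do not show which Kcnk2 start was used.

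**Figure D1:**
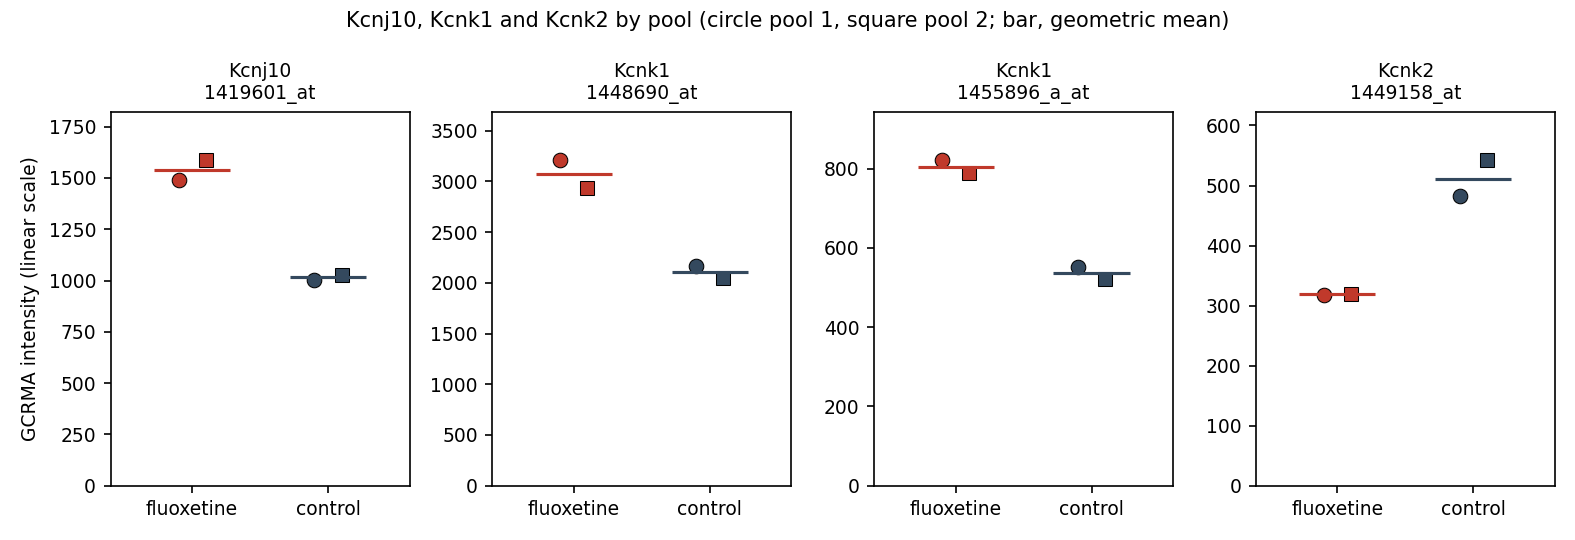
GCRMA intensity (linear axis from 0) of each tested probeset of Kcnj10, Kcnk1 and Kcnk2 in the fluoxetine and control pools, circles for pool 1, squares for pool 2 and bars for geometric means. Both fluoxetine pools lie above both control pools for Kcnj10 (1492 and 1586 against 1004 and 1028) and both Kcnk1 probesets, and below them for Kcnk2.

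Kcnj10 encodes the inward rectifier through which astrocytes take up potassium. Its only probeset read 1492 and 1586 in fluoxetine pools, against 1004 and 1028 in control pools. The groups did not overlap, and pools of a group lay close together. The log2 fold change was 0.60 ± 0.07 (SE, n = 2 pools per group), a 1.51-fold difference with limma adjusted p = 0.0429. Leaving out an array moved it between 0.55 and 0.64, with adjusted p from 0.139 to 0.198. Kcnj16, whose product joins that of Kcnj10 in one channel, was near its control level, and its brighter probeset read 141 and 131 in fluoxetine pools and 141 and 140 in control pools (log2 -0.05 ± 0.07, adjusted p = 0.739). Its dimmer probeset was at log2 -0.12 ± 0.10, and neither passed.

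Of 8 astrocyte markers, 2 rose and 0 fell, against 1.31% and 0.554% of all tested genes. The filament gene Gfap read 3222 and 2606 in fluoxetine pools and 461 and 385 in control pools (log2 2.78 ± 0.14, adjusted p = 0.0172). The water channel gene Aqp4 read 6458 and 5920 in fluoxetine pools and 3050 and 2852 in control pools (log2 1.07 ± 0.08, adjusted p = 0.0262). The other 6 were between log2 -0.20 (Slc4a4) and 0.27 (Gja1) and none passed. The summed intensity of the 8 was 61029 to 63630 in fluoxetine pools and 51381 to 52261 in control pools, and none of the 8 was below the limit for testing. The part of these markers, or of the spike-in shift, in the Kcnj10 difference was not tested.

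Kcnk1 encodes a weakly conducting background channel found in neurons and astrocytes. Its brighter probeset read 3209 and 2938 in fluoxetine pools, against 2169 and 2045 in control pools. That is a log2 fold change of 0.54 ± 0.08, which did not pass (adjusted p = 0.0596). The dimmer probeset, whose name marks it as one that can match several transcripts of a gene, read 821 and 790 in fluoxetine pools, against 553 and 522 in control pools, and passed (log2 0.58 ± 0.07, adjusted p = 0.0448). Leaving out an array moved this one between 0.54 and 0.63, with adjusted p from 0.143 to 0.201. The probesets gave nearly the same fold, 1.46 and 1.5, and in both the groups did not overlap.

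Kcnk2 encodes a background channel opened by stretch, heat and lipids, which fluoxetine itself is known to block. Its probeset read 318 and 320 in fluoxetine pools, against 483 and 542 in control pools. The fluoxetine pools were nearly equal and lay below both control pools. The log2 fold change was -0.68 ± 0.08 (adjusted p = 0.0448), so the fluoxetine mean was 62.4% of the control mean, and this was the largest absolute change among the 39 tested genes. Leaving out an array moved it between -0.76 and -0.60, with adjusted p from 0.143 to 0.192.

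The other 10 Kcnk genes had no tested probeset. Kcnk3, Kcnk4, Kcnk5, Kcnk6, Kcnk7, Kcnk10, Kcnk12, Kcnk13, Kcnk15 and Kcnk16 read between 3.01 and 57.8 over their 15 probesets. The top of that range was Kcnk6, at 36.7 and 57.8 in fluoxetine pools and 25.2 and 26.1 in control pools, all under the minimum of 100. Kcnk13, whose product carries a resting potassium current of microglia, read 40.7 and 40.2 in fluoxetine pools and 34 and 48.7 in control pools at its brighter probeset. Of 7 tested microglia markers, 3 were called higher, C1qa, C1qb and Tyrobp, and 0 lower, beside 1.31% and 0.554% of all tested genes. Their median was log2 0.55, and Csf1r, at 0.55 (adjusted p = 0.0537), did not pass. The summed intensity of the list was 6399 to 6427 in fluoxetine pools and 4106 to 4123 in control pools. The part of these markers in the Kcnk values was not tested.

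Over all 39 tested genes, 23 had a log2 fold change below 0 (59.0%, against 56.5% of all tested genes) and the median was -0.06, beside -0.03 for all tested genes. Pools of the groups did not overlap in 25 genes (64.1%, against 56.3% of all tested genes), 7 higher and 18 lower in fluoxetine pools, beside 23.6% higher and 32.7% lower over all genes. Of the 71 probesets 46 were below 0, beside 58.7% of all tested probesets, and the groups did not overlap in 40, beside 56.0%. Of those, 9 were higher and 31 lower in fluoxetine pools, beside 21.9% and 34.2% of all tested probesets. An unadjusted p under 0.05 was found for 13 genes, 5 higher and 8 lower, 33.3% beside 22.0% of all tested genes. They were 3 Kcnj, 3 accessory and 2 Kcnk genes and 1 gene each of the Kcnc, Kcnh, Kcnq, calcium- or sodium-activated and silent classes, with 0 in Kcna and Kcnd.

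**Figure D2:**
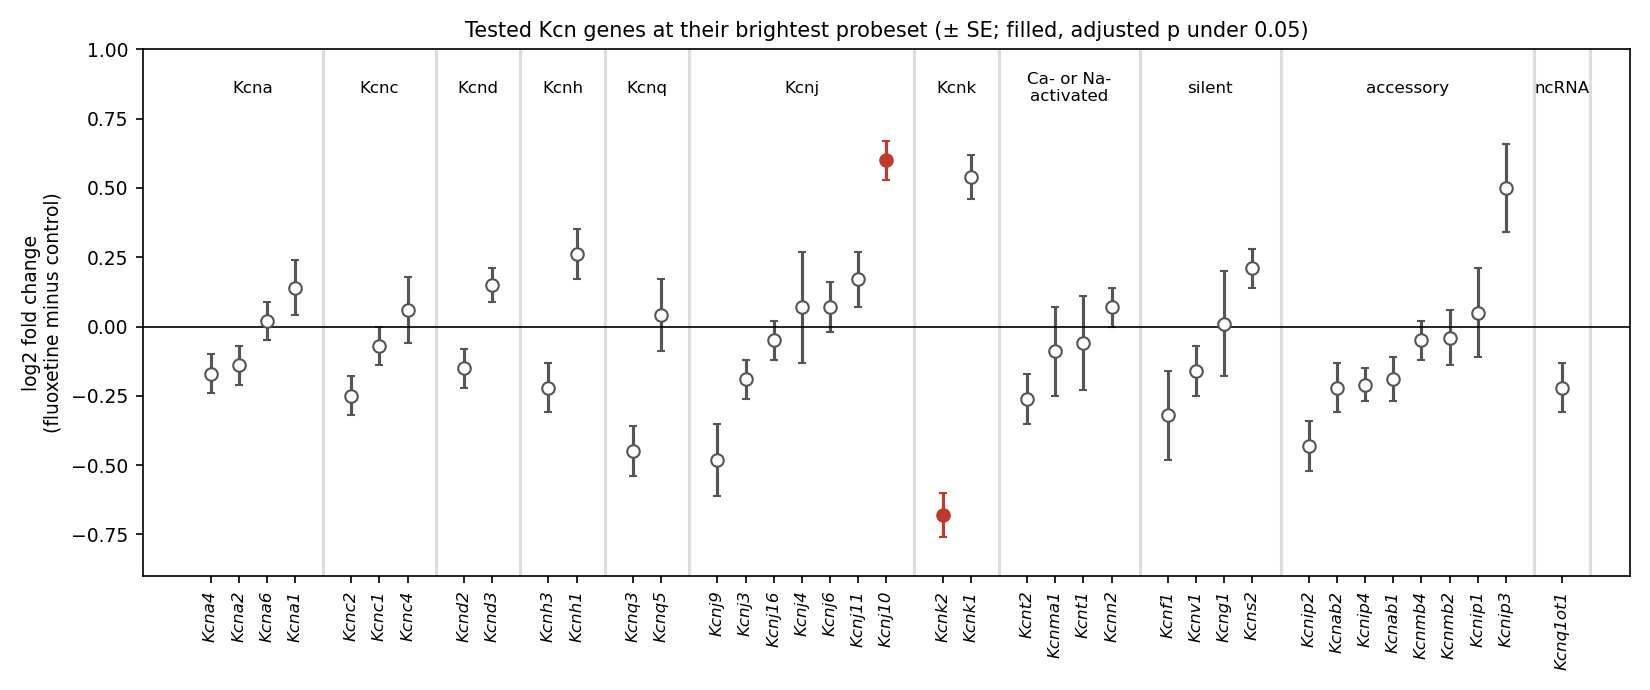
Log2 fold change (fluoxetine minus control) with its SE for the 39 tested genes at their brightest probeset, by class and ordered by value within it; filled points passed an adjusted p under 0.05. Most genes lie near 0, while Kcnj10 at 0.60, Kcnk1 at 0.54 and Kcnip3 at 0.50 stand at the upper end and Kcnk2 at -0.68 at the lower.

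The delayed rectifier and A-type genes of the Kcna class showed small differences, and 0 of 4 tested genes passed. Kcna1, whose channel sits in axons, read 4727 and 4603 in fluoxetine pools and 4570 and 3901 in control pools (log2 0.14 ± 0.10, adjusted p = 0.441), and its 3 probesets lay between 0.08 and 0.14. Kcna2, its axonal partner, read 2349 and 2439 in fluoxetine pools and 2644 and 2613 in control pools (log2 -0.14 ± 0.07, adjusted p = 0.309). Kcna4, an A-type subunit of axons and terminals, read 563 and 610 in fluoxetine pools and 662 and 659 in control pools (log2 -0.17 ± 0.07, adjusted p = 0.26). Kcna6 was at log2 0.02 ± 0.07. Kcna3, Kcna5 and Kcna7 were not tested and read 7.01 to 36.7.

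Kcnc channels close fast and let interneurons fire at high rates, and 0 of 3 tested genes passed. Kcnc2 had both fluoxetine pools, 1962 and 1890, below both control pools, 2291 and 2299 (log2 -0.25 ± 0.07, adjusted p = 0.128). Kcnc1 was at log2 -0.07 ± 0.07 at its brightest probeset, with its 3 probesets between -0.07 and 0.12, and Kcnc4 at 0.06 ± 0.12. Of 5 markers of inhibitory interneurons 0 passed. The parvalbumin gene Pvalb, a marker of the cells that use these channels, was at log2 -0.15 (adjusted p = 0.27), and the largest change was that of Gad2 (log2 0.26, adjusted p = 0.248). No probeset with a single Kcnb symbol was found in the annotation used here.

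Kcnd channels carry the dendritic A-type current of pyramidal cells, and their calcium-sensing partners are the Kcnip proteins. The main pore subunit gene, Kcnd2, read 3731 and 3653 in fluoxetine pools and 4260 and 3925 in control pools (log2 -0.15 ± 0.07, adjusted p = 0.321). Its other 2 tested probesets were at -0.24 and -0.11. Kcnd3 read 2251 and 2266 in fluoxetine pools and 2016 and 2043 in control pools (log2 0.15 ± 0.06, adjusted p = 0.248). Thus the groups did not overlap for either gene at its brightest probeset, in opposite directions, and neither passed. Groups did not overlap in 56.3% of all tested genes. They did overlap at the Kcnd2 probeset at -0.11 and at the dimmer Kcnd3 probeset (log2 0.14 ± 0.12). Kcnd1 read 3.83 to 23.5 over 3 probesets and was not tested.

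The Kcnip genes differed more among themselves, although 0 of their 9 tested probesets passed. Kcnip2 read 719 and 721 in fluoxetine pools, against 1044 and 904 in control pools (log2 -0.43 ± 0.09, adjusted p = 0.0967), and its second probeset 444 and 332 in fluoxetine pools, against 614 and 526 in control pools (log2 -0.57 ± 0.17, adjusted p = 0.152). Kcnip4 had 3 tested probesets, at log2 -0.40 ± 0.07 (adjusted p = 0.0771), -0.34 ± 0.07 (adjusted p = 0.0926) and, at the brightest, -0.21 ± 0.06 (adjusted p = 0.162). In all 5 of these probesets both fluoxetine pools lay below both control pools, as 34.2% of all tested probesets did.

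Kcnip3, which encodes a partner that is also described as a transcriptional repressor, lay in the other direction. Its brighter probeset read 604 and 597 in fluoxetine pools, against 361 and 498 in control pools (log2 0.50 ± 0.16, adjusted p = 0.177). The control pools differed from each other here, and the difference was 0.27 without control pool 1 and 0.74 without control pool 2. The dimmer probeset overlapped between groups at 224 and 231 in fluoxetine pools and 154 and 224 in control pools (log2 0.29 ± 0.19). Kcnip1 was at 0.05 ± 0.16 and, at its dimmer probeset, -0.17 ± 0.11. Dpp6 and Dpp10, the other accessory subunits of these channels, were at log2 0.02 and -0.12, and 0 of the 2 passed.

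**Figure D3:**
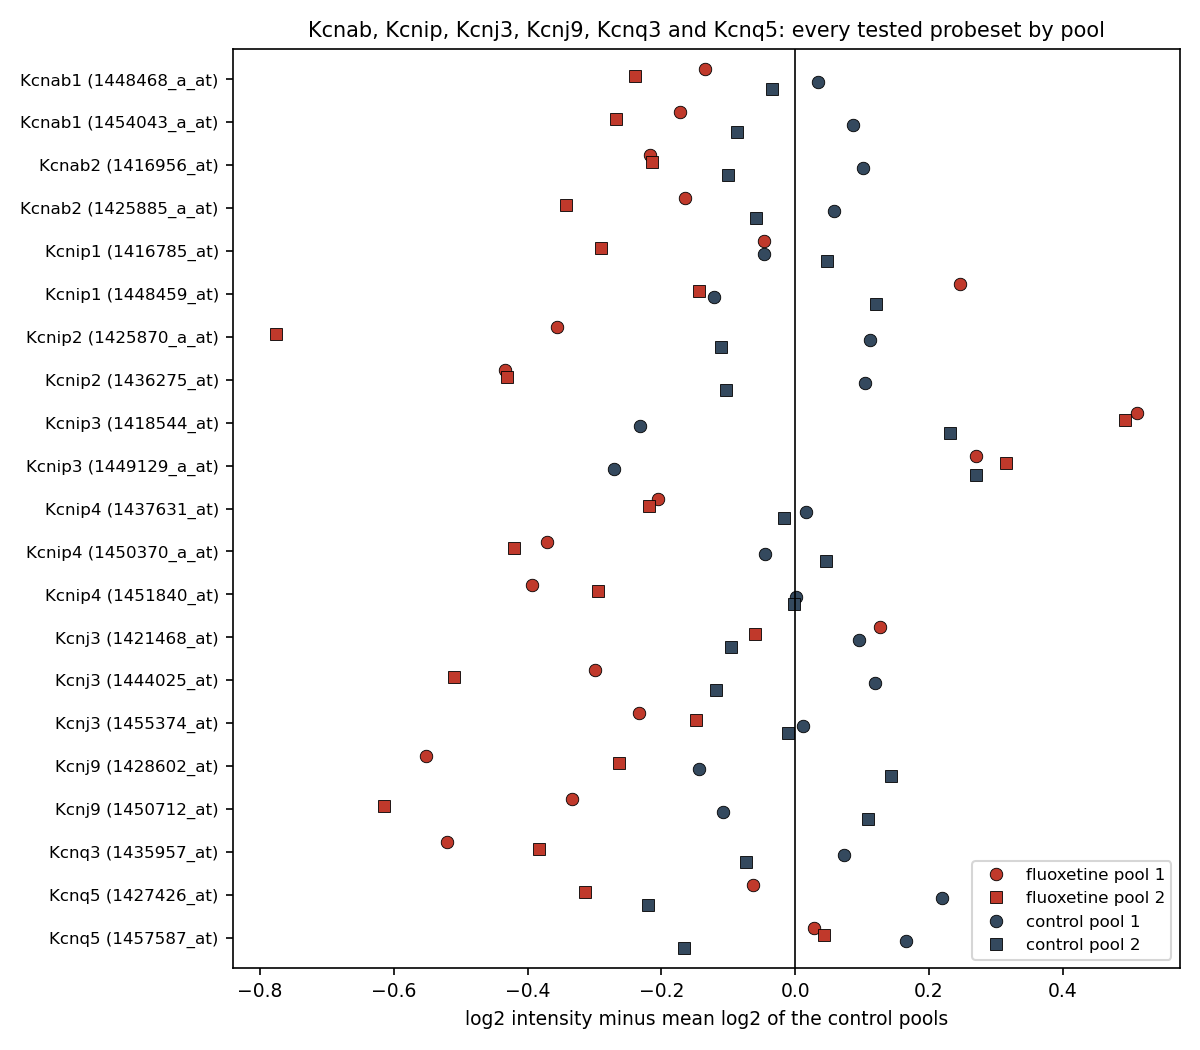
Log2 intensity of each pool minus the mean of the control pools for every tested probeset of the Kcnab, Kcnip, Kcnj3, Kcnj9, Kcnq3 and Kcnq5 genes; red, fluoxetine; dark blue, control; circle, pool 1; square, pool 2. All 5 Kcnip2 and Kcnip4 probesets and all 4 Kcnab probesets have both fluoxetine pools below both control pools, whereas Kcnip3 lies to the right.

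The cytoplasmic beta subunits Kcnab1 and Kcnab2, which bind Kcna channels, were lower, with no overlap between groups, at all 4 of their tested probesets, as 34.2% of all tested probesets were, and 0 passed. Kcnab1 read 1675 and 1558 in fluoxetine pools and 1883 and 1795 in control pools (log2 -0.19 ± 0.08, adjusted p = 0.239). Kcnab2 read 2003 and 2008 in fluoxetine pools and 2498 and 2171 in control pools (log2 -0.22 ± 0.09, adjusted p = 0.255). Their second probesets were at -0.22 ± 0.09 and -0.26 ± 0.09. Kcnab3 was not tested. Of 11 genes for partners of Kcna and Kcnb channels, such as Lgi1 and Cntnap2, 0 passed and the median was -0.21. Lgi2 at -0.38 (adjusted p = 0.321) and Cntnap2 at -0.31 (adjusted p = 0.348) were the farthest from 0. In this list 4 genes were above 0 and 7 below. The only one with an unadjusted p under 0.05, Vapb, was higher (log2 0.23, adjusted p = 0.202).

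Kcnq subunits carry the M-current, which slows repetitive firing and is closed by muscarinic receptors. Kcnq3 read 1991 and 2190 in fluoxetine pools, against 3005 and 2714 in control pools. Both fluoxetine pools were below both control pools, but the log2 fold change of -0.45 ± 0.09 did not pass (adjusted p = 0.0894). It did pass when the variance model was fitted with a trend and robust settings (adjusted p = 0.0495). Kcnq5 read 1927 and 1947 in fluoxetine pools, inside the control values of 2120 and 1684 (log2 0.04 ± 0.13). Its dimmer tested probeset was at -0.19 ± 0.18 (adjusted p = 0.565), also with overlapping groups. Kcnq1 read 5.93 to 6.16 and was not tested. Of 6 tested M-current regulators 0 passed. The muscarinic receptor gene Chrm1 was at log2 -0.26 (adjusted p = 0.123), and Pip5k1c, for an enzyme that makes the lipid these channels need, was at 0.13 (adjusted p = 0.332).

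Kcnh1 and Kcnh3 belong to the ether-a-go-go group. Kcnh1 read 460 and 470 in fluoxetine pools and 415 and 362 in control pools (log2 0.26 ± 0.09, adjusted p = 0.191), while Kcnh3 read 191 and 214 in fluoxetine pools and 230 and 241 in control pools (log2 -0.22 ± 0.09, adjusted p = 0.227). The name of this Kcnh3 probeset marks it as one that can match other genes. The dimmer tested Kcnh3 probeset was at -0.09 ± 0.07 (adjusted p = 0.513). The groups of each gene did not overlap at its brightest probeset, as in 56.3% of all tested genes, and neither gene passed. Kcnh2, Kcnh5, Kcnh7 and Kcnh8 read 4.54 to 53.5 and were not tested.

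Among inward rectifiers, Kcnj3, Kcnj6 and Kcnj9 encode subunits of the channel opened by inhibitory receptors through G proteins. Kcnj9 read 1296 and 1067 in fluoxetine pools, against 1516 and 1761 in control pools (log2 -0.48 ± 0.13, adjusted p = 0.139), and its second probeset was at -0.41 ± 0.15. Kcnj3 read 1790 and 1900 in fluoxetine pools, against 2122 and 2089 in control pools (log2 -0.19 ± 0.07, adjusted p = 0.209). A second Kcnj3 probeset was lower still (-0.41 ± 0.12) and the dimmest was not (0.04 ± 0.11). Kcnj6 read 162 and 167 in fluoxetine pools and 146 and 168 in control pools, with overlapping groups (log2 0.07 ± 0.09). Neither Kcnj3 nor Kcnj9 passed.

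Of 11 tested receptors and regulators of these G protein-gated channels, 1 rose and 0 fell, against 1.31% and 0.554% of all tested genes. The list median was -0.02, beside -0.03 for all tested genes. The somatostatin receptor gene Sstr2 read 307 and 255 in fluoxetine pools, against 111 and 126 in control pools (log2 1.25 ± 0.12, adjusted p = 0.0367). The serotonin receptor gene Htr1a was at log2 -0.31 (adjusted p = 0.152) and the G protein subunit gene Gnb5 at -0.23 (adjusted p = 0.152). The other 8 tested members lay nearer to 0.

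The ATP-sensitive channels join a Kcnj pore with a sulfonylurea receptor. Kcnj11 read 142 and 164 in fluoxetine pools and 130 and 143 in control pools (log2 0.17 ± 0.10, adjusted p = 0.396). Its usual neuronal partner Abcc8 read 263 and 242 in fluoxetine pools and 343 and 349 in control pools (log2 -0.46 ± 0.08, adjusted p = 0.0683). Abcc9, the partner used in vessel walls, rose, at 143 and 140 in fluoxetine pools and 102 and 95.5 in control pools (log2 0.52 ± 0.07, adjusted p = 0.0495). Its pore subunit there, Kcnj8, read 16.8 and 14.6 in fluoxetine pools and 13.7 and 16.6 in control pools, under the minimum. Of 5 tested mural and endothelial markers 1 rose, Rgs5 (log2 0.59, adjusted p = 0.038), beside 1.31% of all tested genes. Cldn5 was at 0.66 (adjusted p = 0.0707), Flt1 at 0.25, Pdgfrb at 0.20 and Vtn at -0.08, and none of these passed. The summed intensity of that list was 4622 to 4778 in fluoxetine pools and 3570 to 3616 in control pools. Rgs5 alone read 2660 and 2648 in fluoxetine pools and 1768 and 1761 in control pools.

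Kcnj4, a constitutive inward rectifier of neurons, read 340 and 236 in fluoxetine pools and 246 and 293 in control pools (log2 0.07 ± 0.20). Of the untested Kcnj genes, Kcnj1, Kcnj2, Kcnj5, Kcnj8, Kcnj12, Kcnj14 and Kcnj15 stayed at or under 16.8 in every array. Kcnj13 was higher in pool 1 than in pool 2 of each group. It read 200 in fluoxetine pool 1 and 19.2 in fluoxetine pool 2, and 80.4 in control pool 1 and 28.7 in control pool 2.

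Kcnj13 and Kcne2 are known from choroid plexus, the ventricular tissue that lies beside the hippocampus. Kcne2 was dim in every array, at 18 in fluoxetine pool 1, 5.64 in fluoxetine pool 2, 9.7 in control pool 1 and 7.2 in control pool 2. The transthyretin gene Ttr, the main choroid plexus product, read 51101 and 4429 in fluoxetine pools 1 and 2 and 37856 and 2002 in control pools 1 and 2. The klotho gene Kl read 120 and 31.7 in fluoxetine pools 1 and 2 and 120 and 49 in control pools 1 and 2. The summed intensity of the 9 choroid plexus markers with a probeset was 51407 and 4538 in fluoxetine pools 1 and 2 and 38083 and 2113 in control pools 1 and 2. Ttr made up most of each sum, so the sums largely repeat its values. Of the 10 markers 2 were tested, with 0 calls. Kcnj13, Kcne2, Ttr and Kl were all higher in pool 1 than in pool 2 of both groups. The part of choroid plexus in the Kcnj13 values was not tested.

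**Figure D4:**
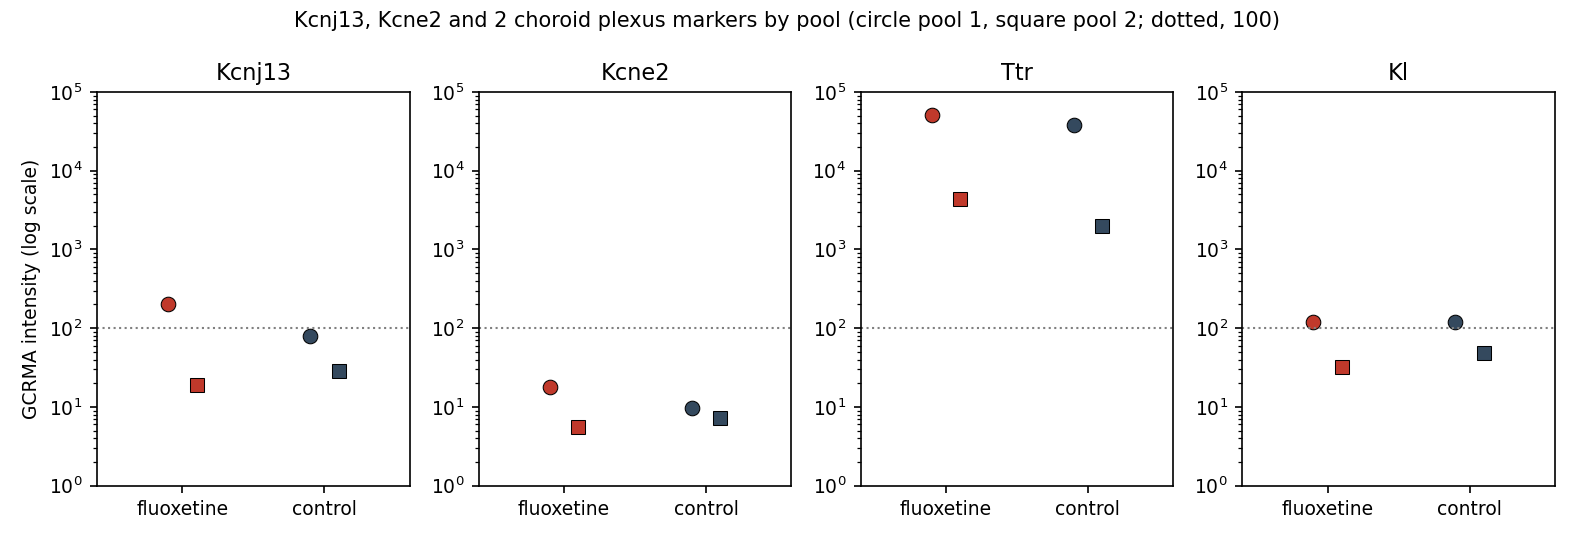
GCRMA intensity (log axis, the same in each panel) of Kcnj13, Kcne2 and the choroid plexus markers Ttr and Kl in each pool; circles are pool 1, squares pool 2, and the dotted line is the minimum of 100. In every panel pool 1 lies above pool 2 in the fluoxetine and in the control group.

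Of the calcium- or sodium-activated channels 0 of 4 tested genes passed. Kcnma1, the large-conductance calcium-activated channel that shortens spikes, was the only Kcn gene whose tested probesets spanned more than 0.5 in log2 fold change. Its brightest probeset read 944 and 1249 in fluoxetine pools and 1254 and 1064 in control pools (log2 -0.09 ± 0.16). A second read 633 and 786 in fluoxetine pools, above 615 and 513 in control pools (log2 0.33 ± 0.15, adjusted p = 0.273). Another read 726 and 736 in fluoxetine pools, below 837 and 895 in control pools (log2 -0.24 ± 0.07, adjusted p = 0.152), and the remaining ones were at -0.24 ± 0.13 and -0.31 ± 0.18. Probesets of a gene can match different transcript ends, and no single direction holds for Kcnma1.

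Kcnt2, a sodium-activated channel gene, read 645 and 713 in fluoxetine pools and 854 and 775 in control pools (log2 -0.26 ± 0.09, adjusted p = 0.194). Kcnn2, the small-conductance channel of the afterhyperpolarisation, read 1379 and 1452 in fluoxetine pools and 1389 and 1313 in control pools (log2 0.07 ± 0.07). Kcnt1 was at log2 -0.06 ± 0.17. Kcnn1, Kcnn3, Kcnn4 and Kcnu1 read 4.32 to 59.7 and were not tested. The accessory BK channel subunits Kcnmb2 and Kcnmb4 were at log2 -0.04 and -0.05, with overlapping groups, and Kcnmb1 was not tested. Of 7 further genes for partners of these channels, 3 had a probeset and 0 reached the limit for testing.

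Silent subunits form no channel alone and alter Kcnb channels, and 0 of 4 tested genes passed. Kcnf1 read 375 and 366 in fluoxetine pools and 396 and 540 in control pools (log2 -0.32 ± 0.16, adjusted p = 0.311). Its difference was -0.55 without control pool 1 and -0.10 without control pool 2. Kcns2 read 683 and 663 in fluoxetine pools and 606 and 562 in control pools (log2 0.21 ± 0.07, adjusted p = 0.205). Kcnv1 was at log2 -0.16 ± 0.09 at its brightest probeset, with its other 2 at -0.05 and 0.03, and Kcng1 at 0.01 ± 0.19. Kcng2, Kcng4, Kcns1, Kcns3 and Kcnv2 read 3.25 to 38.4. The Kcne genes Kcne1, Kcne1l, Kcne3 and Kcne4 were untested as well, within the range of 4.11 to 65.7 of the 10 probesets of accessory genes with no tested probeset. Untested probesets of tested genes, over all classes, numbered 34 and read 3.58 to 118.

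The name also takes in 3 genes that encode no channel. Kcnq1ot1, a long non-coding RNA from the Kcnq1 locus, read 694 and 715 in fluoxetine pools and 769 and 882 in control pools (log2 -0.22 ± 0.09, adjusted p = 0.242), and its 4 tested probesets lay between -0.23 and -0.09. Kcnmb4os1 and Kcnmb4os2, named as opposite-strand transcripts, read 5.06 to 44.7 and were not tested. Counting every gene with 2 or more tested probesets, 15 of 21 Kcn genes had all of them on the same side of 0 (71.4%), beside 64.9% of 3748 genes over the whole array. The 6 exceptions were Kcnc1, Kcnip1, Kcnj3, Kcnma1, Kcnq5 and Kcnv1.

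Pumps and cotransporters that keep the potassium gradient showed 0 calls by limma among 4 tested genes, with 1 at an unadjusted p under 0.05. Over the 7 lists of channel partners, regulators and pumps, 2 of 36 tested genes rose, 0 fell and 8 had an unadjusted p under 0.05. Over all tested genes these shares were 1.31%, 0.554% and 22.0%. Over the 11 marker lists, 6 of 50 rose, 1 fell and 19 had an unadjusted p under 0.05. Atp1b2, a sodium pump subunit of glia, read 2522 and 2385 in fluoxetine pools and 1864 and 2084 in control pools (log2 0.32 ± 0.09, adjusted p = 0.137). The neuronal chloride exporter gene Slc12a5, a potassium cotransporter, was at log2 -0.16 (adjusted p = 0.261). Neuron markers had 0 calls of 6 and a median of -0.02, with summed intensities of 88020 to 89717 in fluoxetine pools and 88860 to 89504 in control pools, and Nefl (log2 0.32, adjusted p = 0.133) was the farthest from 0. Oligodendrocyte markers had 0 calls of 5 (median -0.06). Granule cell markers had 1 fall among 4 tested, Dsp (log2 -1.79 ± 0.24, adjusted p = 0.0495), with C1ql2 at 1.11 (adjusted p = 0.0636) and Calb1 at -0.45 (adjusted p = 0.0771), and their summed intensity was 4365 to 4662 in fluoxetine pools and 5842 to 6617 in control pools. CA pyramidal markers had 0 calls of 4, with Fibcd1 at -0.82 (adjusted p = 0.162). Of neighbouring regions, 1 of 5 striatal and 3 of 5 thalamic and habenular markers were tested, with 0 calls. The striatal one, Ppp1r1b, was at log2 0.66 (adjusted p = 0.059). Prkcd was at 0.56 (adjusted p = 0.179), Slc17a6 at -0.48 (adjusted p = 0.143) and Zic1 at 0.25 (adjusted p = 0.23). The part of these markers in the Kcn differences was not tested.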

How the data were processed

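RNA of 4 hippocampal pools (2 fluoxetine, 2 control) was hybridised to Affymetrix arrays. The authors deposited intensities on a linear scale, made with the GCRMA algorithm in the program ArrayAssist, per the labels, with versions not given in the sources used here. GCRMA pulls dim probesets towards a common floor, so low values carry little information. Values were taken to log2 without a pseudocount. Probesets were named from the platform annotation, and all 167 Kcn probesets matched the reference gene table with 0 changed symbols. Promoter sequences came from RefSeq (GRCm38.p6).

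Groups were compared over all tested probesets with limma 3.58.1 in R 4.3.3 (lmFit, eBayes, no covariate, two-sided, Benjamini-Hochberg over 16938 probesets, threshold 0.05). Its recovery of known changes was checked on simulated data. The noise there came from the fit's own variance model, and the planted changes were larger than any Kcn change here. That simulation therefore cannot judge calls of this size. With 2 arrays a group, 0.333 is the smallest two-sided p of an exact permutation test, so none was used. A gene was represented by its brightest tested probeset. Errors are limma standard errors, and n is the number of pools. The p-values set a difference against the spread between pools, with each probeset's variance drawn towards that of all tested probesets. The number of arrays limits the precision.

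The members and lists were chosen with earlier results of these data known. Named genes were all called ones, up to 3 of largest change in each class, and genes whose tested probesets differed by over 0.5 or in their call. In each list the called genes were named, and in most also further genes of largest change. Some lists, such as the neuron and oligodendrocyte markers, name fewer or none, so unnamed list members need not have changed least. Other members were named after seeing their values, to account for all. Lists covered partners of Kcna, Kcnb, Kcnd, calcium-activated, G protein-gated, ATP-sensitive and Kcnq channels, pumps, and cell type markers. Alternatives were intensity filters, normalization, a floor of 100, a pseudocount of 32, variance models, the pool number as a block, single arrays left out, ambiguous probesets left out, and mean probeset values.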

Additional observations from a re-analysis of the deposited data

Results flagged for a closer look

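Kcnj13 lay outside the tested probesets, since it reached 100 in 1 array alone. That array, fluoxetine pool 1, read 200, and fluoxetine pool 2 read 19.2, against 80.4 and 28.7 in control pools 1 and 2. Pool 1 was the higher one in each group. Ttr read 51101 and 4429 in fluoxetine pools 1 and 2, and 37856 and 2002 in control pools 1 and 2.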

How the results depend on the processing

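The 3 Kcn calls lay close to the threshold of 0.05. The counts of called Kcn probesets, Kcn genes and all probesets, 3, 2 and 291, were 0, 0 and 0 with no intensity filter (21 Kcn and 5396 of all probesets at an unadjusted p under 0.05). They were 0, 0 and 0 with an ordinary t statistic (14 and 2449), 0, 0 and 163 with 100 or more in at least 1 array (22 and 3790), and 5, 4 and 532 with trend and robust settings. Without ambiguous probesets 193 of all probesets passed. Leaving out any 1 array gave 0 for all these counts, with 2657 to 3515 of all probesets at an unadjusted p under 0.05. The median over Kcn genes, -0.06, ran from -0.13 to -0.05 with 1 array left out and was 0.01 with no filter, where the number of Kcn genes whose groups do not overlap, 25, was 46, since more genes enter. Labels do not say that pool numbers pair the samples, and pool 1 minus pool 2 differences correlated between groups at r = 0.139 over 16938 probesets. With the pool number as a replicate block the counts were 0, 0 and 9 (22 Kcn and 3621 of all at an unadjusted p under 0.05). Among genes that did not pass, Kcnc4 changed sign without control pool 1 (-0.08) or fluoxetine pool 2 (-0.03) and ran up to 0.20. Kcnma1 did so without control pool 1 (0.03) or fluoxetine pool 1 (0.11) and ran from -0.29, and Kcnq5 without control pool 2 (-0.13), with 0.20 at most. Of 417 values of single probesets under the alternatives, 383 kept direction and call, 24 lost the call and 5 gained it. A separate 5 reversed, which are the sign changes of Kcnc4, Kcnma1 and Kcnq5 given above. The causes of the other shifts were not tested.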
